A study of Homo sapiens with 102 samples.

Results

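The single-drug arm of the small Combi-Seq screen with trametinib was compared with its solvent arm in K562, a cell line from chronic myeloid leukaemia whose growth is driven by BCR-ABL. Combi-Seq encapsulates cells with a pair of drug solutions in droplets, tags the RNA of each pair with a ligated barcode and reads all pairs out together, so that each library is the pooled transcriptome of the droplets of 1 drug pair. Libraries were chosen by their labels: 12 in which one solution was trametinib and the other the solvent DMSO, and 6 in which both were DMSO, 18 of the 102 libraries of the series. All cells were incubated for 12 h. The solvent group is DMSO_DMSO, and the trametinib group joins Trametinib_DMSO (trametinib listed first) with DMSO_Trametinib (trametinib listed second). Each of the 3 labels was made in 3 runs of the dT screen and 3 runs of the Bio screen, in which the barcode types of both injection sources were swapped. Which place in a label stands for which source was not settled here. Each value is a share of the library's reads, so fewer cells with a transcript and less of it per cell cannot be told apart.

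Trametinib inhibits MEK1 and MEK2, encoded by MAP2K1 and MAP2K2, the kinases that phosphorylate and activate ERK. In K562 cells BCR-ABL feeds this cascade through adaptors such as GRB2, CRKL and GAB2 and through RAS and RAF. Active ERK switches on early genes such as EGR1, FOS, MYC and the DUSP and SPRY feedback regulators, whose transcripts are short-lived and known to fall under MEK inhibition. The question put to the data was which transcripts differed between trametinib alone and solvent.

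The libraries were shallow and unequal in depth. Total counts lay between 81806 and 198316 in the 6 solvent libraries, between 82879 and 254737 in the 6 with trametinib listed second and between 152072 and 428546 in the 6 with trametinib listed first. The first-listed library was the deepest of its run in all 6 runs. Detected genes (at least 1 count) ranged from 1071 to 2967 in solvent, from 808 to 2687 in second-listed and from 1925 to 4552 in first-listed libraries, and second-listed libraries had fewer than solvent in each run. Over both orders, log2 total counts were higher with trametinib by 0.57 ± 0.11 (SD over 6 runs), with p = 0.0370 in an exact permutation test that moved the solvent label within each run and 0.111 after Benjamini-Hochberg adjustment over 3 measures (two-sided, smallest possible p 0.00137). The percentage of counts from the 29 mitochondrial genes was lower by 0.65 ± 0.89 points (adjusted p = 0.193, the same exact test), and was lower in 5 of 6 runs. DMSO_Trametinib of Bio run 1 had 808 detected genes, under the minimum of 1000, and entered none of the fits, so 11 trametinib and 6 solvent libraries were compared. K562 markers took 1.61% to 3.88% of solvent and 1.73% to 4.68% of trametinib counts, led by gamma globin. Markers of T cells, monocytes and fibroblasts took at most 0.000870% in any library and those of B cells at most 0.0229%. Epithelial markers, of which 3 of 5 were counted, took 0.00756% to 0.132% and 0.00393% to 0.160%.

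**Figure D1:**
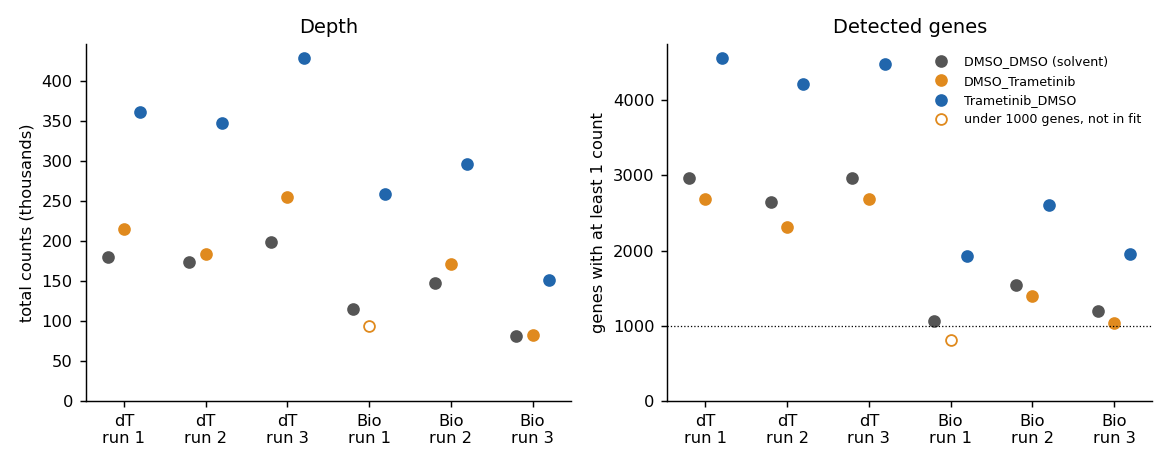
Total counts, in units of 1000 (left), and genes with at least 1 count (right) of each library, by screen and run. Filled points entered the fits, the open point is the library with 808 detected genes, and the dotted line marks the minimum of 1000; the Trametinib_DMSO library was the highest of its run in both measures.

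No gene passed an adjusted p of 0.05 with both screens and both orders together. Of 1234 genes that were counted in 50% or more of the 17 libraries, 0 were called (0%) by edgeR's quasi-likelihood test with a block for each screen and run and Benjamini-Hochberg adjustment. At an unadjusted p under 0.05 there were 80 genes (6.48%), 60 higher (4.86%) and 20 lower (1.62%). A count in 9 of the 11 trametinib libraries was enough to enter the test, whereas the 6 solvent libraries alone could not bring a gene in. On trametinib libraries alone 536 of the 1234 genes entered, among them 34 of the 60 higher and 5 of the 20 lower ones, so these 2 counts cannot be set against each other as a sign of direction. limma-trend called 0, whereas DESeq2's Wald test on the same table called 55, of which 44 were higher with trametinib. The count from edgeR was also 0 without each of the 17 libraries in turn. With genes counted in every library, the only ones for which no zero enters the fold change, 1 of 134 passed (0.746%): HMGA1, lower with trametinib.

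Most fold changes were measured on few libraries. Of 12223 genes with a count in any of the 17 libraries, 5062 were counted in 1 library only. For the 1100 tested genes with a zero in at least 1 library the median standard error of log2 fold change was 2.00, and 30.5% had fold changes over 2 on the log2 scale in either direction. For the 134 genes counted in all 17 these values were 0.76 and 2.24%. Over the tested genes the log2 fold change had a median of 0.34 with TMM scaling, 0.20 with DESeq2 size factors and 0.23 with library totals, and -0.001 over the 134 genes fitted on their own.

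**Figure D2:**
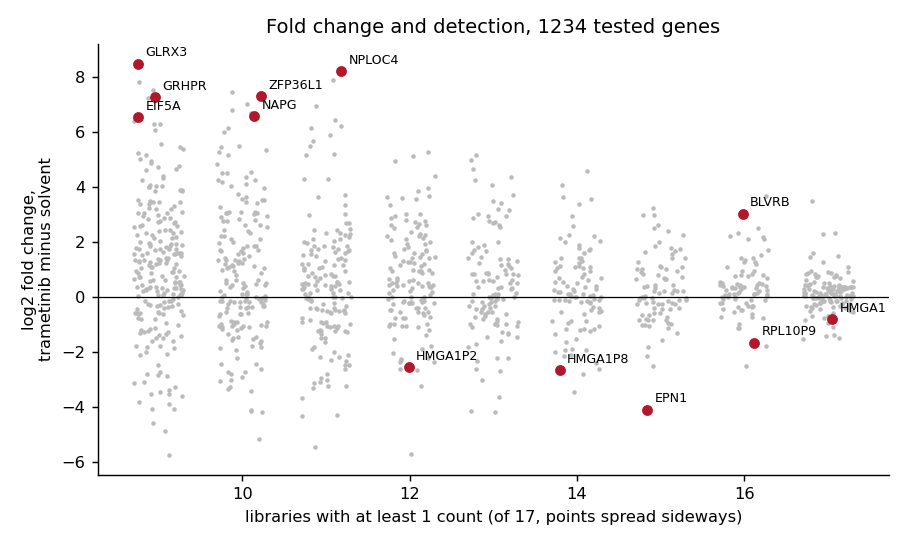
Log2 fold change (trametinib minus solvent, vertical axis) against the number of libraries with a count (horizontal axis, spread sideways), 1 grey point for each of the 1234 tested genes. Named genes are red; the spread narrows towards genes counted in all 17 libraries, where HMGA1 is among the lowest, while GLRX3, GRHPR and EIF5A were counted in 9.

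HMGA1 encodes a small chromatin protein that binds AT-rich DNA and is abundant in proliferating cells. In the dT screen the solvent libraries held 8898, 16380 and 14210 CPM (counts scaled to a library total of 1000000) in runs 1, 2 and 3. The second-listed libraries held 6206, 9031 and 6348 CPM and the first-listed ones 8322, 5880 and 7080 CPM. In the Bio screen solvent had 13870, 14760 and 9498 CPM, first-listed trametinib 3621, 7444 and 7924 CPM, and second-listed trametinib 8124 and 7324 CPM in runs 2 and 3 and 5536 CPM in the library left out. Each trametinib library was lower than the solvent library of its own run, the ratio of CPM lying between 0.261 and 0.935 in the 11 fitted ones, although the groups overlapped in 1 pair of values, 9031 against 8898 CPM. With library totals as scaling, 4 of the 134 genes counted throughout (2.99%) were lower than their own solvent in all 11, and 0 were higher. With TMM scaling HMGA1 was lower in 9 of 11 and none of the 134 was lower in all.

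Means were 7027 ± 1484 CPM with trametinib (SD, n = 11) and 12940 ± 3027 CPM in solvent (n = 6). The log2 fold change was -0.80 (SE 0.22, 95% confidence interval -1.25 to -0.34), with an unadjusted p of 0.00167 and an adjusted p of 0.513 over 1234 genes in edgeR's test. Set against the median of all tested genes it was -1.14, and between -0.57 and -1.59 over 13 other ways of processing. Among the 134 genes it was -0.88 (SE 0.19) with an adjusted p of 0.0416. In the dT screen alone HMGA1 had -0.75 (SE 0.22, adjusted p = 0.838) and in the Bio screen alone -0.85 (SE 0.46, adjusted p = 0.730). The difference between screens was 0.03 (SE 0.45) and that between first- and second-listed trametinib 0.05 (SE 0.26), adjusted p = 1.00 and 0.991 in edgeR's test.

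The call on HMGA1 rested on single libraries: left out in turn, 13 of the 17 each ended it, and adjusted p ranged from 0.0127 to 0.304 in edgeR's test. It held without run 1 of the dT solvent, run 1 of the dT first-listed, or run 1 or run 3 of the dT second-listed libraries. The fold change stayed between -1.09 and -0.71. Libraries outside the comparison put the level in context. HMGA1 lay between 1663 and 7554 CPM in the 6 separate DMSO libraries (median 2325 CPM), which were not made as drug pairs, and between 4527 and 9759 CPM in the 6 libraries with trametinib from both sources (median 7951 CPM). The first of these medians lay below the fitted trametinib range of 3621 to 9031 CPM and the second within it.

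**Figure D3:**
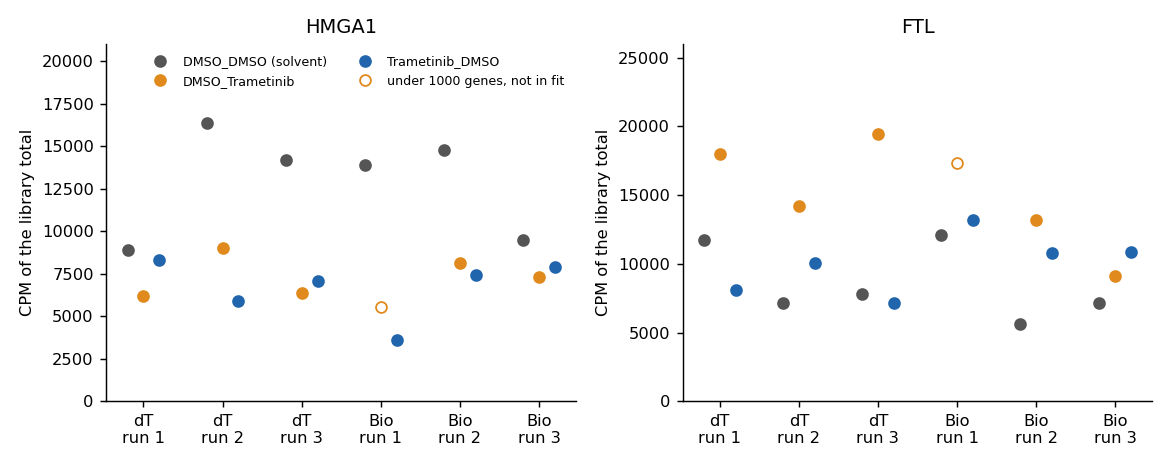
CPM of HMGA1 (left) and of FTL (right) in each library by screen and run; both axes start at 0 and the open point is the library left out of the fits. HMGA1 was highest in the solvent library of every run, from 8898 to 16380 CPM, and FTL was higher in the second-listed than in the solvent library of every run.

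Processed pseudogenes of HMGA1 were among the genes lower with trametinib at the smallest p. HMGA1 lies at chr6:34236873-34246231 on the plus strand of GRCh38, HMGA1P2 at chr4:73098822-73099145 (plus) and HMGA1P8 at chr2:74418122-74418442 (minus). Both copies match the 321 coding bases of HMGA1 transcript HMGA1-201 at 308 positions, 96.0%. Of the 272 windows of 50 bases in the coding sequence, 42 occur whole in HMGA1P2 and 24 in HMGA1P8, so reads of that length cannot always be assigned. The stretch of 60 coding bases in 1 exon with the most mismatches to both copies is shown, from chr6:34240833-34240892, chr4:73098874-73098933 and chr2:74418331-74418390 (GENCODE 29 transcripts, GRCh38, 5′ to 3′ on the gene's strand). Capitals mark bases that differ between HMGA1 and a copy.
HMGA1: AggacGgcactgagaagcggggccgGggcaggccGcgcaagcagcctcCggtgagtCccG
HMGA1P2: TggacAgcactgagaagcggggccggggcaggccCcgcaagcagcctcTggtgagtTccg
HMGA1P8: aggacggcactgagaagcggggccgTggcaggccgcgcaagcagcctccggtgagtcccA
The copies carried few reads: 128 counts in the 18 libraries, 0.408% of the 31387 counts of HMGA1. HMGA1P2 had 3 to 17 counts in the dT and 1 to 3 in the Bio solvent libraries, against 0 to 7 and 0 to 2 with trametinib in the fits. Its log2 fold change was -2.55 (SE 0.80, unadjusted p = 0.00332). HMGA1P8 had 3 to 16 counts in solvent and 0 to 5 with trametinib, with a log2 fold change of -2.65 (SE 0.84, unadjusted p = 0.00417). Adjusted p was 0.513 for both in edgeR's test, and how the counting treated reads that match several places is not given in the sources used here.

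The other genes of lowest p that were lower with trametinib were EPN1 and RPL10P9. EPN1, an adaptor of clathrin-mediated endocytosis, had 1929, 3705 and 2002 CPM in the dT solvent libraries and 15.7 to 420.4 CPM in the 6 dT trametinib libraries. EPN1 was picked for its low p, and the share of tested genes with such a gap was not counted. In Bio the solvent libraries held 8.70, 20.4 and 5024 CPM, the last from 411 counts in run 3, and trametinib 0 to 237 CPM. The log2 fold change was -4.10 (SE 1.13) over both screens and -4.29 (SE 0.96) in dT, where the unadjusted p was 0.000644 and adjusted p 0.838 in edgeR's test. RPL10P9, a pseudogene of a ribosomal protein gene, had 2 to 11 counts in solvent and 0 to 5 with trametinib (log2 fold change -1.66, SE 0.58, adjusted p = 0.513).

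On the other side, the 5 genes of lowest p were EIF5A, NPLOC4, GLRX3, GRHPR and NAPG, and each had 0 to 2 counts in the 6 solvent libraries together. EIF5A and GLRX3, the 2 tested genes with 0 counts in solvent, entered the test only through the group in which they were high. NPLOC4 was also counted in 9 trametinib libraries, enough to enter on that group alone. GRHPR and NAPG were counted in 8 trametinib libraries, and in 1 and 2 solvent libraries at 1 count each. EIF5A, a translation factor that helps ribosomes past difficult peptide bonds, had 0 counts in solvent and 167 counts with trametinib in 9 of 11 libraries. Against a floor of 3 counts over the solvent group it was at least 18.1-fold higher with trametinib. GLRX3, a glutaredoxin of iron-sulphur cluster handling, had 0 and 685 counts, at least 74.4-fold higher, with single libraries between 0 and 273. These limits cover counting error only, and adjusted p was 0.513 for both genes in edgeR's test. NPLOC4, a cofactor of the segregase VCP, had 2 counts in solvent and 1986 with trametinib, a ratio of 324 (95% exact counting interval 89.5 to 2670), but its dT second-listed libraries held only 1, 0 and 0 counts. GRHPR, an enzyme of glyoxylate metabolism, had 1 and 655 counts (ratio 214, 38.2 to 8450) and NAPG, a SNAP protein of vesicle fusion, 2 and 587 (ratio 95.7, 26.4 to 792). The intervals of these ratios cover counting error only as well. Depth ran in the same direction as these differences, since first-listed trametinib libraries were the deepest, and its part in the result was not tested.

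Better counted genes followed at somewhat larger p. FTL, the ferritin light chain that stores iron, had 5641 to 12120 CPM in solvent (median 7484 CPM), 9110 to 19470 CPM in the 5 fitted second-listed and 7147 to 13170 CPM in the 6 first-listed libraries, so the groups overlapped. In 9 of 11 libraries it was above its own solvent, the exceptions being first-listed dT runs 1 and 3. Its log2 fold change was 0.70 (SE 0.23, adjusted p = 0.513 in edgeR's test), 0.64 in dT and 0.73 in Bio. EEF2, the factor that moves the ribosome along the message and a gene picked after its values were seen, had 171 to 3419 CPM in solvent (median 912.8) and 302 to 8016 CPM with trametinib (median 4854), higher than its own solvent in 10 of 11 libraries. Its log2 fold change was 2.32 (SE 0.77, adjusted p = 0.513). BLVRB, a biliverdin and flavin reductase of erythroid cells, had 0 to 2231 CPM in solvent, 652 to 3278 CPM in fitted second-listed and 2585 to 12460 CPM in first-listed libraries. All 6 first-listed values were above all 6 solvent values, but how many tested genes were separated in this way was not counted. The log2 fold change over both orders was 3.03 (SE 1.13, adjusted p = 0.662). With edgeR's own expression filter, which left 3333 genes, EEF2 and BLVRB passed at adjusted p = 0.0326 and 0.00183, together with GPN2 (higher) and DROSHA (lower), both named after their values were seen. GPN2 had 0 counts in all 6 solvent libraries, so it entered that filter only through the group in which it was high. It had 0 to 1260 counts in first-listed libraries and 0 or 1 in the fitted second-listed ones. DROSHA had 0 counts in 2 solvent libraries and up to 7768 CPM in another.

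A further 4 genes counted in all 17 libraries were picked after their values were seen. RPS3AP5, a ribosomal protein pseudogene, had 1 to 11 counts in solvent and 1 to 9 with trametinib, and a log2 fold change of -1.16 among the 134 genes (SE 0.30, adjusted p = 0.0804 in edgeR's test). RPS6, a protein of the small ribosomal subunit and a well-known phosphorylation target of S6 kinases, had 4486 to 11320 CPM in solvent and 3075 to 6727 CPM with trametinib, lower than its own solvent in 11 of 11 fitted libraries by CPM and in 8 of 11 with TMM scaling. The library left out ran the other way, with 8730 CPM against 6942 CPM in its solvent. Its log2 fold change there was -0.52 (SE 0.18, adjusted p = 0.340). ERGIC3, a cargo protein between endoplasmic reticulum and Golgi, had 3.27 (SE 1.07) and MT-CO2, a mitochondrially encoded subunit of cytochrome c oxidase, -1.62 (SE 0.64), with adjusted p = 0.340 and 0.394. Of the genes with the most counts, HBG2 (a gamma globin), RPL31 and RPL13 (proteins of the large ribosomal subunit) took 2.64%, 2.53% and 2.15% of all counts. Their log2 fold changes were 0.19, 0.16 and 0.21, with SE of 0.15, 0.13 and 0.13 and no adjusted p below 0.861 in edgeR's test. For HBG2 the 95% confidence interval ran from -0.11 to 0.50; reads of the near-identical HBG1 cannot be separated with certainty.

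Most ERK target transcripts were near or below detection. Of 44 ERK target genes 38 are in the table, 24 had a count in any of the 17 libraries and 1 was counted often enough to be tested. The summed share of the list was 0% to 0.1835% of counts in solvent (median 0.00928%). With trametinib it was 0.00707% to 0.2497% (median 0.146%), and the ranges overlapped. ZFP36L1, described below, held the most trametinib counts of the list. DUSP4, DUSP5, SPRY1, SPRY2 and SPRY4 had 0 counts in all 17. MYC was counted in 2 of 6 solvent libraries (263 counts) and 6 of 11 trametinib libraries (514 counts), too few to be tested. In dT runs 1, 2 and 3 it had 826, 0 and 575 CPM in solvent, 69.3, 170 and 0 CPM in first-listed and 1343, 0 and 404 CPM in second-listed libraries. In Bio it was at 0 in solvent and at 0 to 386 CPM with trametinib. MYC was thus lower than its solvent in first-listed dT runs 1 and 3, and the second-listed libraries of these runs lay on both sides of theirs. EGR1 had 0 counts in solvent and 148 in 4 trametinib libraries, of which 83 and 53 came from 2 of them. FOS had 0 counts in solvent and 1 with trametinib. By counting error alone a count of 0 allows up to 3 counts, which is 15.1 to 36.7 CPM in a single solvent library. That limit leaves out the spread between libraries. A fall of targets that were at 0 in solvent, such as EGR1 and FOS, was therefore not detectable at this depth. The tested target was ZFP36L1, an RNA-binding protein that promotes decay of AU-rich messages. It had 1, 1, 0, 0, 0 and 0 counts in solvent, between 284 and 529 in 5 of 6 first-listed libraries and 0 to 28 in the 5 fitted second-listed ones. Over all fitted libraries it had 2038 counts against 2, a ratio of 332 (95% exact counting interval 91.8 to 2740), with adjusted p = 0.738 in edgeR's test. The interval covers counting error only and leaves out the spread between libraries. ZFP36L1 was counted in 8 trametinib and 2 solvent libraries, so it entered the test mainly through the group in which it was high. First-listed minus second-listed, the log2 difference was 7.59 (SE 2.75, adjusted p = 0.272).

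The targets of the drug and their neighbours were counted unevenly. MAP2K1 was counted in 3 of 17 libraries, with 34 counts in solvent and 2 with trametinib, and was not tested. Of the solvent counts 28 came from dT run 3 and 6 from dT run 2, and the other solvent libraries held 0. MAP2K2 had 554, 1743, 212, 2088, 957 and 2677 CPM in the solvent libraries and 0 to 1444 CPM with trametinib, counted in 9 of 11. Its log2 fold change was -1.82 (SE 1.51, 95% confidence interval -5.00 to 1.35, adjusted p = 0.880 in edgeR's test). Of 35 genes of the chain from BCR-ABL to ERK 29 had a count and 8 were tested. None of the 8 passed in either direction and none had an unadjusted p under 0.05, 6 being positive and 2 negative, with a median of 2.25 beside 0.34 for all tested genes. The adaptor CRKL was counted in 11 of 11 trametinib and 3 of 6 solvent libraries, with 3.58 (SE 1.94). The fitted second-listed libraries held only 1 to 3 counts each, the first-listed ones 9 to 724 and the solvent ones 0 to 91. First-listed minus second-listed, CRKL had 4.49 (SE 2.19, adjusted p = 0.543 in edgeR's test). HRAS had 2.93 (SE 2.31), BCR 2.56 (SE 2.22), the 14-3-3 proteins YWHAB and YWHAZ 1.94 (SE 2.24) and 0.37 (SE 2.02), and PPP2R1A, the scaffold of phosphatase PP2A, -0.78 (SE 2.18). All 8 genes had a zero in at least 1 library. The summed share of the chain was 0.194% to 0.802% of counts in solvent and 0.172% to 0.815% with trametinib.

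**Figure D4:**
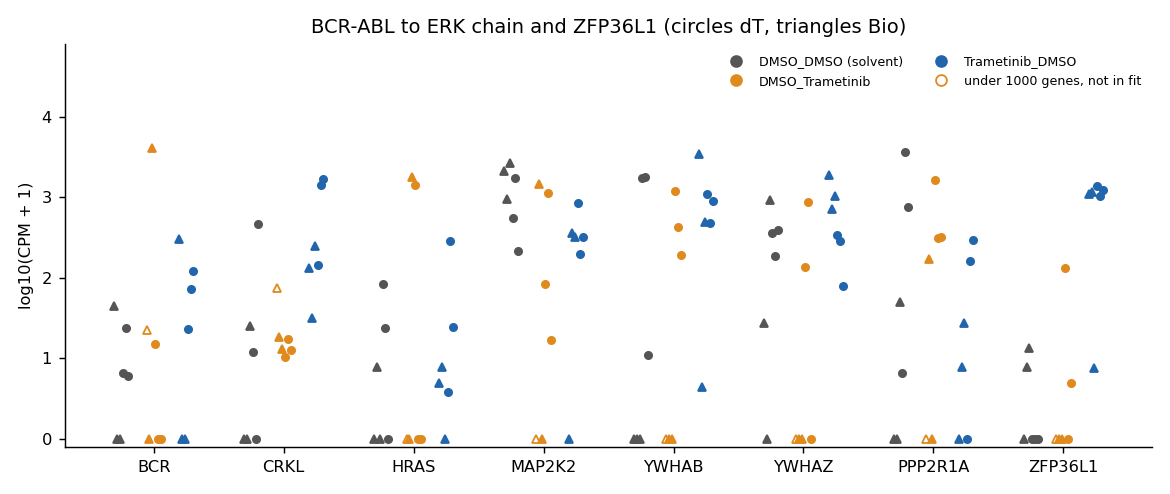
Log10 of CPM plus 1 in each library for 7 tested genes of the BCR-ABL to ERK chain and for ZFP36L1, with circles for dT and triangles for Bio and open symbols for the library left out. Most genes had zeros in both groups, MAP2K2 was counted in all 6 solvent libraries, and ZFP36L1 stood near 1000 CPM in 5 of 6 first-listed libraries.

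Other gene groups had no member past the adjusted threshold in edgeR's test over 1234 genes. Of the erythroid genes 9 of 33 were tested (5 positive, 4 negative, median 0.12), with the erythroid transcription factor GATA1 at 1.66 (SE 2.31). Among the K562 markers the embryonic globins HBZ and HBE1 had 0.26 (SE 1.15) and -1.04 (SE 1.46). The megakaryocyte list, the other lineage K562 cells can take, had RUNX1 alone tested, at -2.45 (SE 1.82). Among glycolytic enzymes 9 of 19 were tested (7 positive, 2 negative, median 0.38), and ENO1, the best counted, had 0.28 (SE 0.25). ALDOA and PKM, of the same list, had -1.41 (SE 1.21) and 1.67 (SE 1.52), and TPI1 0.15 (SE 1.29), which turned negative with other scalings. Of 11 metallothionein and ferritin genes 8 were tested (6 positive, 2 negative, median 0.37). After FTL, the metal-binding MT1X had 0.51 (SE 0.29, unadjusted p = 0.0977), MT1E 4.38 (SE 3.03) and MT2A 0.04 (SE 0.14), the last turning negative with other scalings. The heat shock and stress list had 10 of 24 tested and a median of 0.79. ATF4, the transcription factor of the integrated stress response, had -1.79 (SE 1.35), the small heat shock protein HSPB1 0.93 (SE 0.81), the mitochondrial chaperonin HSPE1 1.27 (SE 1.41) and HSP90AB1 -0.16 (SE 0.73).

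In the actin and SRF list 11 of 26 genes were tested, with a median of 0.13. The calponin CNN2 had -4.88 (SE 2.63, unadjusted p = 0.0377) and the actin capping subunit CAPZB 4.08 (SE 1.97, unadjusted p = 0.0482), with adjusted p = 0.738 and 0.753. SRF itself, a transcription factor that ERK signalling acts on through its partners, had -3.40 (SE 2.28), and the best counted members MYL6 and FLNA had -0.14 (SE 0.49) and -1.13 (SE 0.92). The list of MYC and nucleolar genes had 6 of 30 tested, 4 of them negative, with a median of -0.61 beside 0.34 for all tested genes. Its nucleolar proteins NCL, BOP1 and FBL had -3.44 (SE 2.49), -1.21 (SE 2.01) and 2.34 (SE 4.87), and SRM, a spermidine synthase, had -0.01 (SE 1.15). Each of these genes had opposite signs in the screens fitted apart. In dT and Bio the values were 1.35 and -7.73 for NCL, -1.72 and 1.41 for BOP1, 8.79 and -3.65 for FBL, and -0.60 and 0.95 for SRM. The summed share of that list was 0.322% to 0.783% in solvent (median 0.627%) and 0.0635% to 0.597% with trametinib (median 0.254%), overlapping ranges. The mitosis list had 6 of 33 tested (median 0.19), with the kinase PLK1 at 3.53 (SE 2.71), UBE2S at -1.83 (SE 2.03) and STMN1 at 1.70 (SE 2.02). The list of G1/S and replication genes had 2 of 31, CCND3 at 0.28 (SE 3.38) and MCM7 at 0.40 (SE 1.92). Of 20 cholesterol synthesis genes 5 were tested (median -1.15), SQLE, the squalene epoxidase, having 6.46 (SE 2.87, unadjusted p = 0.0274), FDFT1 -4.05 (SE 3.95) and SREBF2 1.61 (SE 2.14). The interferon list had 3 of 27, all negative, with IFITM3 at -2.68 (SE 2.54). None of 25 apoptosis regulators was tested, although 18 had a count in some library.

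The screens were also fitted apart. In dT 0 of 2058 genes were called (0%), with 116 (5.64%) at an unadjusted p under 0.05 and 35 by DESeq2. In Bio 0 of 890 were called (0%), with 60 (6.74%) and 44. The test of a different trametinib effect between screens called 0 of 1234 (0%), with 102 (8.27%) at an unadjusted p under 0.05 and 61 by DESeq2. Across the 134 genes counted in every library the log2 fold changes of both screens, which share no library, had Pearson's r = 0.268 and Spearman's rho = 0.166, and 54.5% had the same sign. Across the 797 genes tested in each screen these values were 0.123, 0.13 and 53.5%. Of these 797 genes, 35 passed an unadjusted p of 0.05 in dT, 53 in Bio and 6 in both, which is 17.1% and 11.3% of them. These 6 were BLVRB, EEF2, EIF5A, GLRX3, NPLOC4 and TIMM50, named after their values were seen. TIMM50, of the mitochondrial import machinery, went opposite ways. In dT it had 0 counts in each solvent library and 0 to 181 with trametinib, and in Bio 0, 76 and 70 counts in solvent and 0 to 5 with trametinib. BLVRB had 2.14 (SE 0.73) in dT and 7.48 (SE 3.02) in Bio, where 2 of 3 solvent libraries held 1 and 0 counts, and EEF2 1.66 (SE 0.59) and 3.28 (SE 1.34).

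The orders of the labels were compared within the trametinib group. First-listed libraries were the deepest of their runs, and the number of libraries differs from the comparison with solvent. Counts of called genes can therefore not be ranked between the comparisons. With edgeR's own expression filter 5 genes passed between the orders and 4 between trametinib and solvent. First-listed against second-listed trametinib gave 5 of 1234 genes past an adjusted p of 0.05 in edgeR's test (0.405%), 2 higher and 3 lower in first-listed libraries (1 and 4 with DESeq2 size factors), and 113 at an unadjusted p under 0.05 (9.16%). MT-CO2 had 2168 to 4623 CPM in first-listed, 99.0 to 1158 CPM in the 5 fitted second-listed and 3723 to 11230 CPM in solvent libraries. The ranges of both orders did not overlap, but how many tested genes had such a gap was not counted. The second-listed library left out had 5142 CPM. The log2 difference was 2.84 (SE 0.55, adjusted p = 0.0423). Beside it, all mitochondrial genes together took 4.40% to 6.11% of counts in the fitted second-listed and 4.89% to 6.63% in first-listed libraries. HSF1, the main transcription factor of the heat shock response, had 0 to 62.0 CPM in first-listed libraries, 2183 to 4842 CPM in second-listed dT libraries and 17.5 and 458 CPM in those of Bio (log2 difference -7.76, SE 1.47, adjusted p = 0.0421). Solvent, at 0 to 3871 CPM, overlapped both orders, and in Bio run 1 it was above each fitted Bio trametinib library.

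RRP15, a ribosomal RNA processing factor, had 0 counts in all 6 first-listed and 108 in the 5 fitted second-listed libraries, at least 73.1-fold higher in second-listed against a floor of 3 counts over the group (adjusted p = 0.0446 in edgeR's test). The solvent libraries held 3 to 12 counts each. CFAP251, a cilium-associated protein, had 1 and 25 counts, a ratio of 50.7 in favour of second-listed libraries (95% exact counting interval 8.31 to 2080, adjusted p = 0.0446). MT-TC, the mitochondrial transfer RNA for cysteine, had 110 counts in first-listed and 3 in second-listed libraries, a ratio of 18.1 (6.02 to 88.9, adjusted p = 0.0487), although the library left out held 13. The fold limit and the intervals given for RRP15, CFAP251 and MT-TC cover counting error only. Without each library in turn 0 to 2 of the 1234 or more genes passed, HSF1 in 3 of these fits and MT-CO2 in 1.

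**Figure D5:**
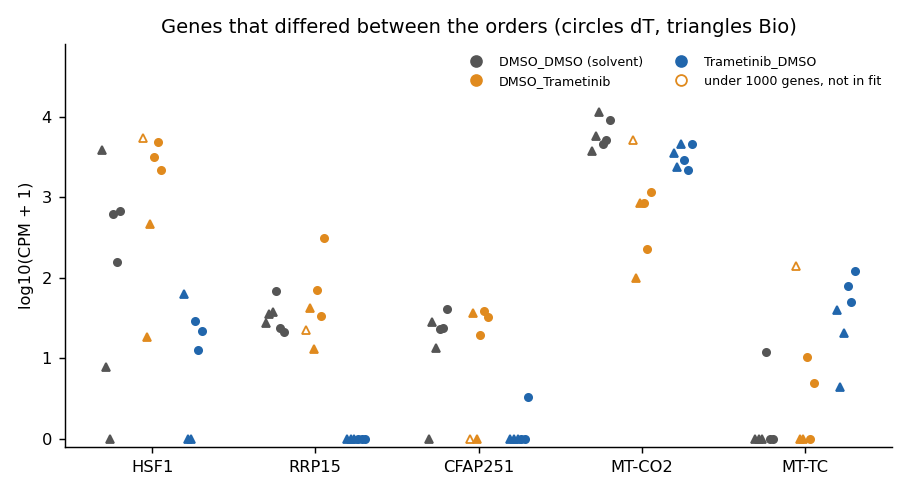
Log10 of CPM plus 1 in each library for the 5 genes that differed between first- and second-listed trametinib, with circles for dT, triangles for Bio and open symbols for the library left out. RRP15 was 0 in all first-listed libraries and MT-CO2 lower in the fitted second-listed libraries (99.0 to 1158 CPM) than in the first-listed (2168 to 4623 CPM) and solvent ones (3723 to 11230 CPM).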

How the data were processed

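K562 transcriptomes were read as barcoded Combi-Seq libraries. As deposited, the authors' values are unnormalised read counts in 1 table of 24965 Ensembl genes, split by drug pair. The submitters' processing notes name STAR 2.4.2a and GRCh38. Whether counting used strand, and how multiply matching reads were treated, is not given in the sources used here. Collapsing of reads to molecules is not described, and limits from counts cover counting error only. The table had 0 columns of other samples and 0 entries that name no gene. Symbols were matched for 24539 genes and GENCODE 29 coordinates (GRCh38) for 24646.

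Libraries with under 1000 detected genes were left out, which removed 1 of 18. Genes counted in 50% or more of the libraries of a fit were tested with the glmQLFit and glmQLFTest functions of edgeR 4.0.16 (R 4.3.3), with TMM scaling and 1 term per screen and run, and Benjamini-Hochberg adjustment at 0.05 over all genes tested. Each screen was also fitted alone, and the difference between screens and between orders was tested in the same way. Standard errors are on the log2 scale. DESeq2 1.42.0 and limma 3.58.1 were alternatives, beside other scalings, gene filters, thinning to the shallowest library (81806 counts for both screens), no block, and leaving out each library. Scripts were tested on simulated data. Total counts (81806 to 428546) set the precision. CPM are counts scaled to a library total of 1000000. Other tools were python 3.11.15, pandas 2.3.3, scipy 1.17.1, biopython 1.88 and matplotlib 3.10.9.

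Up to 10 genes per direction past the threshold were named for both screens together, or, where fewer than 5 passed, the 5 of smallest p; tested members of the ERK lists, and from other lists the 3 of smallest p and the 2 with most counts; up to 3 genes per direction in each screen, between screens and between orders; and the 5 genes with the most counts. The members and lists were chosen with earlier results of these data known. The 18 pairs of replicate libraries held 0 identical ones, with a chi-square per degree of freedom of at least 56.7. The study names the 3 runs biological replicates. The fits give each screen and run its own term, so differences in level between runs are removed. The p-values of the fits measure the spread that remains among libraries, to which both orders of a run contribute. Some genes that the rule names are not reported here.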

Additional observations from a re-analysis of the deposited data

Results flagged for a closer look

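In 26 groups of 5 or 6 trametinib libraries tested for a library far from the others, 4 held one, where chance gives about 1 in 20 groups. HMGA1 was lowest in first-listed Bio run 1, at 3621 CPM against 7324 to 8124 CPM in the other fitted Bio trametinib libraries. BLVRB was highest in first-listed Bio run 3, at 8627 CPM against 652 to 2839 CPM. EPN1 was highest in first-listed dT run 2, at 420.4 CPM against 15.7 to 158 CPM, and in first-listed Bio run 3, at 236.7 CPM against 0 to 11.7 CPM. Without first-listed Bio run 1 the log2 fold change of HMGA1 among genes counted in every library was -0.71 (adjusted p = 0.152 in edgeR's test).

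First- and second-listed trametinib libraries differed for 5 genes, tested as the difference itself. Solvent libraries have no such order, so the drug, its place in the label, its barcode and depth cannot be told apart here. The fitted log2 differences (first minus second) were -7.76 for HSF1, 2.84 for MT-CO2, -6.85 for RRP15, -4.36 for CFAP251 and 4.46 for MT-TC. Those of RRP15, CFAP251 and MT-TC move with the fit's prior count, because one order held at most 3 counts in all.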

How the results depend on the processing

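With both screens together, the count of 0 called genes was 0 also with DESeq2 size factors, library totals, thinned counts, no replicate block, screen and run as additive terms, limma-trend, no minimum of detected genes, and without each library in turn. It was 4 with filterByExpr (3333 genes), 1 with genes counted in every library, 2 with no gene filter (12223 genes), 55 with the DESeq2 test, 4 with first-listed and 1 with second-listed trametinib only. In dT it was 1 with filterByExpr, 1 with no gene filter (BLVRB each time) and 35 with the DESeq2 test, and in Bio 44 with the DESeq2 test. The difference between screens gave 1 gene (CYBA) with no replicate block and 61 with the DESeq2 test. Leaving out each library gave 0 in each of these 4 comparisons. The 5 genes between orders became 2 with no replicate block, 3 with genes counted in every library, 109 with the DESeq2 test, 2 with thinned counts and 0 to 2 without each library. The cause was not tested.

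The block of screen and run was used because the runs were processed apart. Deviations of libraries with the same run number correlated with a mean r of 0.013 in 16 pairs, 3 of them over 0.1, against -0.007 in 32 pairs of different runs. Without the block HMGA1 had -0.78 over both screens, and the 2 counts above were the only counts of called genes that moved. Genes at an unadjusted p under 0.05 went from 60 to 96 in Bio and from 102 to 204 for the difference between screens.

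Higher or lower turned for genes that passed no threshold. BCR had -0.018 and YWHAZ -3.34 with second-listed trametinib only, YWHAZ -0.037 with thinned counts and PPP2R1A 0.16 with additive terms. MT2A had -0.058 with DESeq2 size factors, -0.083 with library totals, -0.052 with genes counted in every library, -0.053 with thinned counts, -0.051 with no minimum of detected genes, -0.0585 with the DESeq2 test and -0.0059 with first-listed trametinib only. TPI1 had -0.0247 with DESeq2 size factors, -0.0081 with library totals, -0.023 with the DESeq2 test and -0.28 with limma-trend. With first-listed trametinib only HSP90AB1 had 0.41, MYL6 0.12, SRM 0.48, MCM7 -0.65, CCND3 -0.021 and SREBF2 -0.32, and CCND3 had -0.40 with second-listed only. With limma-trend MYL6 had 0.026, MCM7 -0.50 and CCND3 -0.033. FBL had -2.59 with no replicate block and -2.26 with additive terms, where MCM7 had -2.08 and -0.77. SRM had 0.025 with filterByExpr and 0.11 with no gene filter. With no minimum of detected genes MCM7 had -0.33 and CCND3 -1.22. Without each library in turn the ranges that crossed 0 were -0.25 to 1.52 (YWHAZ), -1.68 to 0.52 (PPP2R1A), -0.036 to 0.15 (MT2A), -0.39 to 0.71 (TPI1), -0.23 to 0.85 (HBZ), -1.61 to 0.57 (HBE1), -0.52 to 0.15 (HSP90AB1), -0.50 to 0.11 (MYL6), -0.48 to 0.47 (SRM), -0.92 to 1.06 (MCM7) and -1.72 to 2.97 (CCND3).

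HMGA1 was negative in all 31 fits of both screens, from -0.92 to -0.65. In fits of genes counted in every library, chosen after seeing the data, its adjusted p was 0.0581 with DESeq2 size factors, 0.0460 with library totals, 0.00988 with no replicate block, 0.000557 with DESeq2's test, 0.0526 with no minimum of detected genes, 0.194 and 0.103 with first- or second-listed trametinib only, and 0.572 and 0.710 in dT or Bio alone. Depth limits the sparse genes: 3 counts are 7.0 to 36.7 CPM, depending on the library.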

Other observations

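Trametinib against solvent gave different genes when either order stood alone, and all of these were named after their values were seen. With first-listed trametinib only, 4 of 1660 genes passed in edgeR's test. EEF2 had a log2 fold change of 3.02 (adjusted p = 0.0437) and BLVRB 4.09 (adjusted p = 0.0426). PYCR1, an enzyme of proline synthesis, had -7.60 (adjusted p = 0.0426), with 1319 to 6098 CPM in solvent, 0 to 686 CPM in first-listed and 87.4 to 4694 CPM in the fitted second-listed libraries. RRP15 passed as well (adjusted p = 0.0426) with 0 counts in the first-listed libraries. With second-listed trametinib only, 1 of 1004 genes passed, MT-CO2, with -3.85 (adjusted p = 0.0282). The difference between orders, tested directly in all 17 libraries, was -7.01 for PYCR1 (adjusted p = 0.118), 1.91 for EEF2 (0.486) and 2.22 for BLVRB (0.486), so of these 5 genes MT-CO2 and RRP15 passed that test.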
